A study of Mus musculus with 11 samples.

Results

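The 7 genes described here encode liver enzymes that modify foreign and endogenous compounds: the glutathione transferases Gsta3 and Gstm3, the carboxylesterases Ces1c and Ces1g, the flavin-containing monooxygenase Fmo5, the fatty aldehyde dehydrogenase Aldh3a2 and the sulfate-activating enzyme Papss1. They were taken by gene symbol from 13406 genes with a symbol on a mouse array. Each had 1 spot, and all 7 were among the 3558 genes or unnamed spots that could be tested.

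Livers of C57/BL/6J mice (also spelled C57/BL/J6 in the labels) were compared in 3 groups. Fasted mice (3 arrays) ate a diet with 42.16% fat over 10 weeks and had no food for the last 48 h. High-fat mice (3 arrays used of 4) ate the same diet and kept eating it to the end, and control mice (4 arrays) ate chow with 6.5% fat for the same time. Each array held the liver RNA of 1 mouse against a universal mouse reference RNA, so the values are ratios of liver to reference on a log scale, whose base is not stated and was taken as 2. No transgene or drug was used, sex and age are not stated in the labels, and no group was fasted after chow, so the fast was measured only in mice that had eaten the high-fat diet. Per the labels the groups held 4 fasted, 5 high-fat and 9 control mice, which is more than the arrays analysed.

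Detoxification in hepatocytes runs in steps. Oxidases, reductases and hydrolases such as flavin-containing monooxygenases, aldehyde dehydrogenases and carboxylesterases expose a reactive group, and transferases then attach glutathione, sulfate or glucuronate so that the product can be exported. Many of these genes are controlled by the nuclear receptors PXR and CAR and by the oxidative stress factor NRF2, and many are also enzymes of lipid metabolism.

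The arrays carried liver RNA by their markers. On the 10 arrays used, the centred ratios (each array's median set to 0) of albumin (Alb), the lipoprotein Apoa1, transferrin (Trf) and the ethanol-oxidising Cyp2e1 lay between 1.03 and 3.23. High-fat array 4 correlated with the other arrays with a Pearson r of -0.0267 to 0.00879 and was left out. On it the hepatocyte markers with a value, of 9 tested, lay 1.45 below their means over the other arrays. The 10 arrays used held values for 3864 to 5567 of 17280 spots and correlated with each other with r of 0.691 to 0.941. Signal over background is unknown, because intensities are not used here, and precision is set by how many arrays each group has. The ratios were spread less widely on the high-fat arrays, with a median absolute deviation of 0.26 to 0.39, against 0.44 to 0.49 on fasted and 0.43 to 0.52 on control arrays. Changes were therefore also computed with the arrays scaled to one spread, and a value named as scaled comes from that setting.

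The promoters of Gsta3, Ces1c and Ces1g are shown because Gsta3 and Ces1c had the largest differences among the tested genes of their classes between the high-fat and control groups and Ces1g is a close neighbour of Ces1c. Each runs 5′ to 3′ along its gene, over 300 bases around the start of the gene, most of them before it, with capitals on matches to the 4 motifs named below (RefSeq, GRCm38.p6). Gsta3 lies at chr1:21240335-21240634 on the plus strand, Ces1c at chr8:93131234-93131533 on the minus strand and Ces1g at chr8:93337160-93337459 on the minus strand. On chromosome 8, 3 genes stand between Ces1c and Ces1g.
Gsta3: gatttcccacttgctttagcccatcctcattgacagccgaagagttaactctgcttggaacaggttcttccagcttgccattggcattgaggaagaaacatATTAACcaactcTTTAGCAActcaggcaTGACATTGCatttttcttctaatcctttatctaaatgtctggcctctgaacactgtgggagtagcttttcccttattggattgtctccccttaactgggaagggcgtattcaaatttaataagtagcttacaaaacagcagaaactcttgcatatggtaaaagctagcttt
Ces1c: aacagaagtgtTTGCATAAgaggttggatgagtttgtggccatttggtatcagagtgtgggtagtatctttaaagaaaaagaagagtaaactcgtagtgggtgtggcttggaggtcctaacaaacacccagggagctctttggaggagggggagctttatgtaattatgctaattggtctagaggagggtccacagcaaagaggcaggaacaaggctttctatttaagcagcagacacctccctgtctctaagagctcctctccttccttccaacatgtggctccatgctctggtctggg
Ces1g: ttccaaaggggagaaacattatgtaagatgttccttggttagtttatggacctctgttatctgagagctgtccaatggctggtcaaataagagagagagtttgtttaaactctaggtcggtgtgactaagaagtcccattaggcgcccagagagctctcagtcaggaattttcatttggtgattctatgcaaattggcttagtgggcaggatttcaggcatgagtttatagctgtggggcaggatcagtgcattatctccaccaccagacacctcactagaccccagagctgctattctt
The motifs searched on both strands were TGACNNNGC (the core of the antioxidant response element bound by NRF2), AGGTCA (the nuclear receptor hexamer), GTTAAT (HNF1) and TTGCNNAA (C/EBP). The Gsta3 window held an antioxidant core as TGACATTGC at base 130, a C/EBP match at base 114 and an HNF1 match at base 102, counted from the 5′ end. The Ces1c window held 1 C/EBP match, at base 12, and the Ces1g window held 0 matches. Of 32851 mouse promoters of this length 12.4% held the antioxidant core, 16.3% the nuclear receptor hexamer, 7.1% the HNF1 letters and 10.8% the C/EBP letters; these matches are descriptions of letters only.

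High-fat livers were first compared with control livers, which asks what 10 weeks of the diet changed. The carboxylesterase Ces1c fell 2.69-fold and was the 1 member called, with an adjusted p under 0.05. Gsta3, Ces1g, Papss1, Gstm3 and Aldh3a2 had negative changes and Fmo5 a positive one, none of which passed. The members' median log2 change was -0.59, beside 0.08 over all genes, and -0.38 scaled, beside 0.07. Of all genes 1.97% fell in this comparison and 2.95% rose (limma, Benjamini-Hochberg adjustment over 3558 tests), and scaled 0.675% fell. At an unadjusted p under 0.05, 3 members were lower, beside 8.63% of all genes, and 6 of 7 had a change below 0, beside 39.6%. Without control array 2 the members' median was -0.18, and 6 of 7 members had negative changes. Scaled, 5 of 7 were below 0, both with and without control array 2, and with quantile normalisation 4 of 7 were.

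Fasted livers were next compared with control livers, which puts the diet and the fast together. Papss1, which makes the sulfate donor, fell 2.45-fold and was the 1 member called, beside 1.04% of all genes that fell and 2.16% that rose. Gsta3, Gstm3 and Ces1c had changes of -1.28, -0.98 and -0.92 without passing. Scaled, 0 members passed by limma and 0.0562% of all genes fell, while 4 members were lower at an unadjusted p under 0.05, as they were centred, beside 9.16% of all genes there. The members' median was -0.92, beside 0.015 over all genes, and -0.82 scaled. Of the 7 changes 6 were below 0, beside 47.9% of all genes. Without control array 2 the median was -0.48, again with 6 of 7 members below 0.

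Fasted livers were last compared with high-fat livers, which sets the fast apart from the diet. By limma 0 of 7 members passed, beside 0.281% of all genes that fell and 0.0843% that rose, and 1 member, Gstm3, was lower at an unadjusted p under 0.05, beside 9.81% of all genes. Of the 7 changes 5 were below 0, beside 56.5% of all genes, and scaled 0 members and 0.422% of all genes fell. The members' median was -0.12, beside -0.05 over all genes, and -0.26 scaled. The 3 comparisons share their groups pairwise, so their values stand side by side and are not independent of each other.

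**Figure D1:**
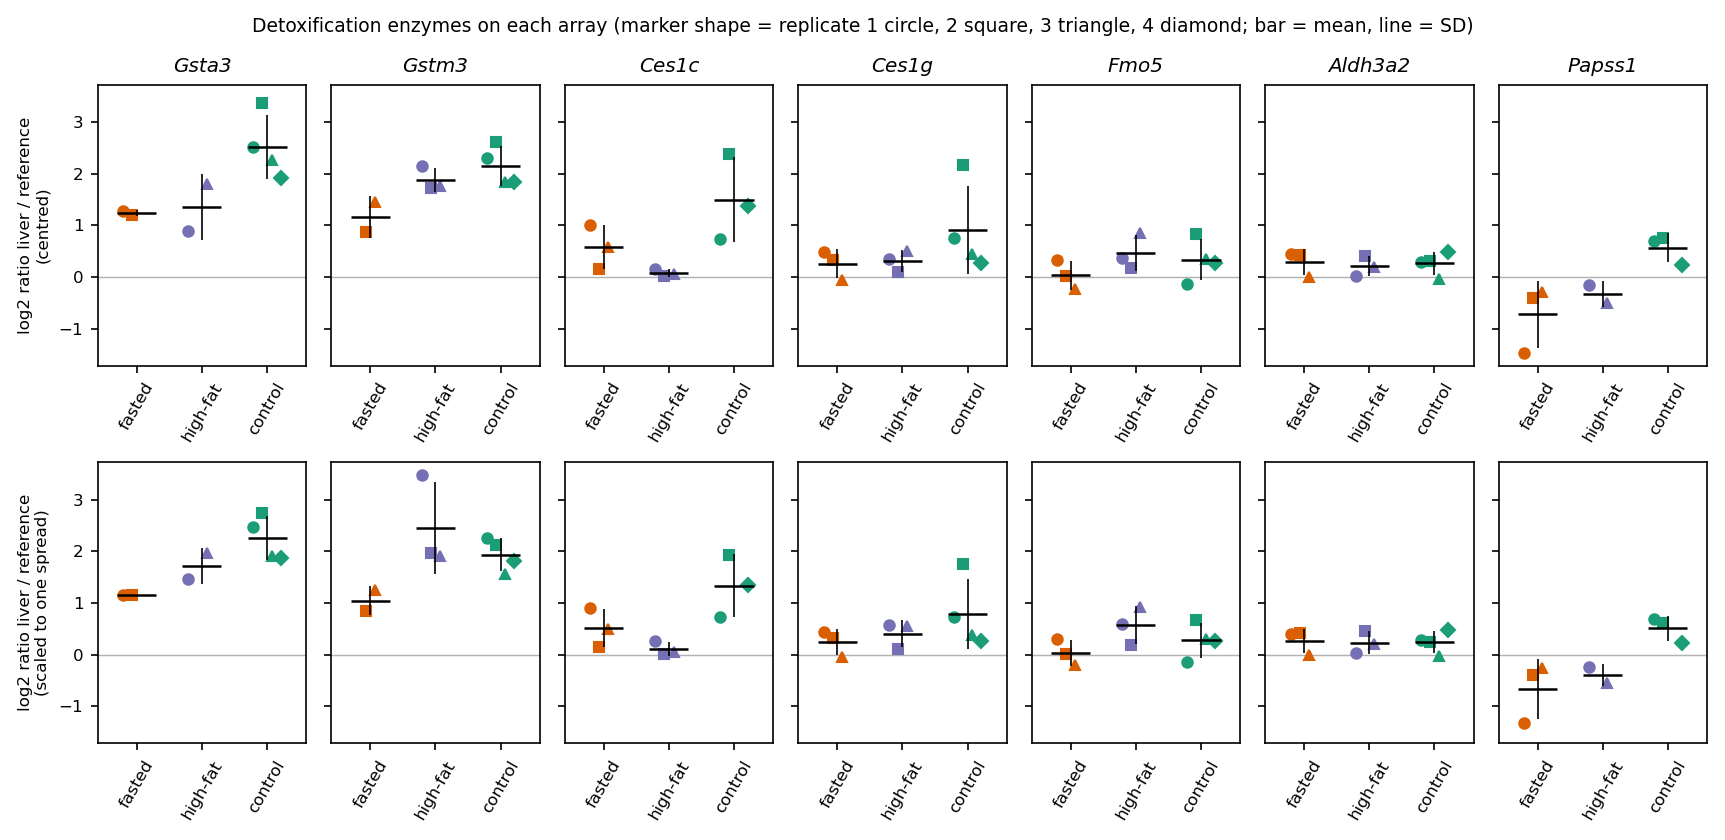
Log2 ratio of liver over reference for each enzyme on each array, with arrays centred (top) and scaled to one spread (bottom). Points are arrays, bars are group means and lines are ± SD; Ces1c lies near 0 on all 3 high-fat arrays, and the square of control array 2 is the highest control point of the top row for Gsta3, Gstm3, Ces1c, Ces1g, Fmo5 and Papss1.

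Gsta3, an alpha-class transferase that conjugates electrophiles, including aflatoxin epoxide in mice, had centred ratios of 1.28 and 1.2 on the 2 filled fasted arrays. It had 0.90 and 1.81 on the 2 filled high-fat arrays, and 2.52, 3.37, 2.26 and 1.91 on the control arrays. All values of both other groups thus lay below the lowest control value. The change was -1.16 ± 0.37 (SE, adjusted p = 0.0897 by limma) between high-fat and control. It was -1.28 ± 0.37 (SE, adjusted p = 0.0912 by limma) between fasted and control. Scaled, these changes were -0.54 and -1.10, with adjusted p of 0.301 and 0.0888, and the high-fat and control groups then overlapped. Between high-fat and control Gsta3 had -0.71 (adjusted p = 0.406) without high-fat array 1 and -0.88 (adjusted p = 0.0930) without control array 2. Without control array 2 the change between fasted and control was -0.99 (adjusted p = 0.0815). High-fat array 4 had -0.40, and with it the change between high-fat and control was -1.75 (adjusted p = 0.0768). That array did not correlate with the others, so these values are no support for the fall. Fasted and high-fat livers differed by -0.12, with a 95% interval of -1.06 to 0.83, an interval wider than the changes against control.

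Gstm3, a mu-class transferase, had 0.88 and 1.45 on the 2 filled fasted arrays and 2.14, 1.72 and 1.77 on the high-fat arrays. Control arrays had 2.30, 2.62, 1.84 and 1.84. Fasted values lay below all values of both other groups, while high-fat and control overlapped. The change was -0.98 ± 0.25 (SE) between fasted and control, with an adjusted p of 0.0583 by limma. Between fasted and high-fat it was -0.71 ± 0.26 (SE, adjusted p = 0.265 by limma), or -1.41 scaled (adjusted p = 0.311) and -0.43 without fasted array 2 (adjusted p = 0.589). Between high-fat and control the centred change of -0.27 turned to 0.52 scaled, and the scaled value of high-fat array 1, the array with the smallest spread, was 3.48. With array quality weights in the fit, Gsta3 and Gstm3 both passed between fasted and control (adjusted p of 0.0262 and 0.0189), and Gstm3 also passed without control array 4 (adjusted p = 0.0458).

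Within this enzyme class 23 of 28 listed genes had a spot and 9 were tested. Gsta3 and Gstm3 included, 0 rose and 0 fell in any of the 3 comparisons (limma). At an unadjusted p under 0.05, 4 were lower and 1 higher between high-fat and control, where 8.63% of all genes were lower. Between fasted and control 4 were lower and 0 higher, where 9.16% of all genes were lower. Between fasted and high-fat 2 were lower and 1 higher, where 9.81% of all genes were lower. Of these 9, 8 had negative changes between high-fat and control, beside 39.6% of all genes, with a median of -0.27 that turned to 0.03 scaled. The same number were negative between fasted and control, beside 47.9% of all genes, with medians of -0.21 centred and -0.19 scaled. Gstt1, a theta-class transferase, averaged 0.70 ± 0.08 in high-fat livers (SD, n = 3) and 1.43 ± 0.42 in control livers (SD, n = 4), a change of -0.73 ± 0.21 (SE, adjusted p = 0.0667). Gstz1, which isomerises maleylacetoacetate in tyrosine breakdown, was opposite, with 0.35 ± 0.12 (SE, adjusted p = 0.108) between high-fat and control. Gstz1 had -0.56 (adjusted p = 0.0948) between fasted and high-fat, with no overlap of the groups. Scaled, these Gstz1 changes were 0.17 and -0.36 (adjusted p of 0.516 and 0.460 by limma). The Gstt1 change between high-fat and control was -0.37 scaled (adjusted p = 0.310 by limma). Of the 4 tested genes of glutathione synthesis and use 0 passed by limma, and 1 had an unadjusted p under 0.05 in each comparison with control. Gpx3, the secreted glutathione peroxidase, had 0.53 between high-fat and control (adjusted p = 0.140) and 0.17 scaled.

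The carboxylesterases cleave esters and amides of drugs and lipids. Ces1c, which in mice is the esterase secreted into blood plasma, had 1.00, 0.16 and 0.58 on the fasted arrays. High-fat arrays had 0.16, 0.01 and 0.05, and the 3 filled control arrays had 0.74, 2.38 and 1.38. High-fat values lay close together and below every control value, whereas fasted values overlapped control and met the high-fat values at 0.16. The fall between high-fat and control was -1.43 ± 0.34 (SE, adjusted p = 0.0432 by limma) and -1.23 scaled (adjusted p = 0.0424), so it passed under both scalings. Scaling stretches ratios about 0 and moved the high-fat values little, to 0.26, 0.01 and 0.05, so the scaled pass is a weak check. The fall was a narrow pass: over the 21 alternatives in which Ces1c could be tested its adjusted p ran from 0.0224 to 0.135, and 7 of them kept the call. Leaving out any 1 array other than control array 1 ended the call, with adjusted p of 0.0528 (without control array 2, where the change was -0.99) to 0.135 (without high-fat array 2). Ces1c had no value on control array 3, and without that array or any 1 fasted array its change stayed at -1.43. The SE was 0.336 and 0.337 without fasted array 1 or 2, below the 0.344 with all arrays used. It was 0.345 without control array 3 and 0.361 without fasted array 3. What ended the call in each of these fits was not tested. High-fat array 4 had -0.72, and with it in the fit the change was -1.63 (adjusted p = 0.0396). That fit is among the 7 that kept the call. The array did not correlate with the others, so its values are no support for the fall. Ces1c had -0.92 ± 0.34 (SE, adjusted p = 0.159) between fasted and control, and without control array 2 it had -0.48 (adjusted p = 0.346). It had 0.51 ± 0.34 (SE, adjusted p = 0.505) between fasted and high-fat, and 0.30 without fasted array 1 (adjusted p = 0.811).

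Ces1g, the hepatic carboxylesterase that in mice hydrolyses triglycerides and cholesteryl esters, had 0.49, 0.33 and -0.05 on fasted arrays. High-fat arrays had 0.35, 0.09 and 0.51, and control arrays had 0.75, 2.16, 0.45 and 0.28. The groups overlapped, and control array 2, at 2.16, lay above the other control arrays. The mean of all 4 control arrays, array 2 included, was 0.91 ± 0.86 (SD, n = 4). The change was -0.59 between high-fat and control, with a 95% interval of -1.38 to 0.19, and -0.65 between fasted and control, with an interval of -1.44 to 0.13. Without control array 2 these changes were -0.18 and -0.24. Ces1e, the other tested gene of the class, had -0.39 ± 0.14 (SE, adjusted p = 0.119) between high-fat and control, with no overlap, and 0.37 ± 0.15 (SE, adjusted p = 0.304) between fasted and high-fat. Scaled, these Ces1e changes were -0.13 and 0.11 (adjusted p of 0.637 and 0.870). Of the 28 listed esterases 13 had a spot, and the 3 named here were those tested. The spot sequences are not used here, so signal from near-identical relatives in the Ces1 and Gstm clusters was not tested.

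**Figure D2:**
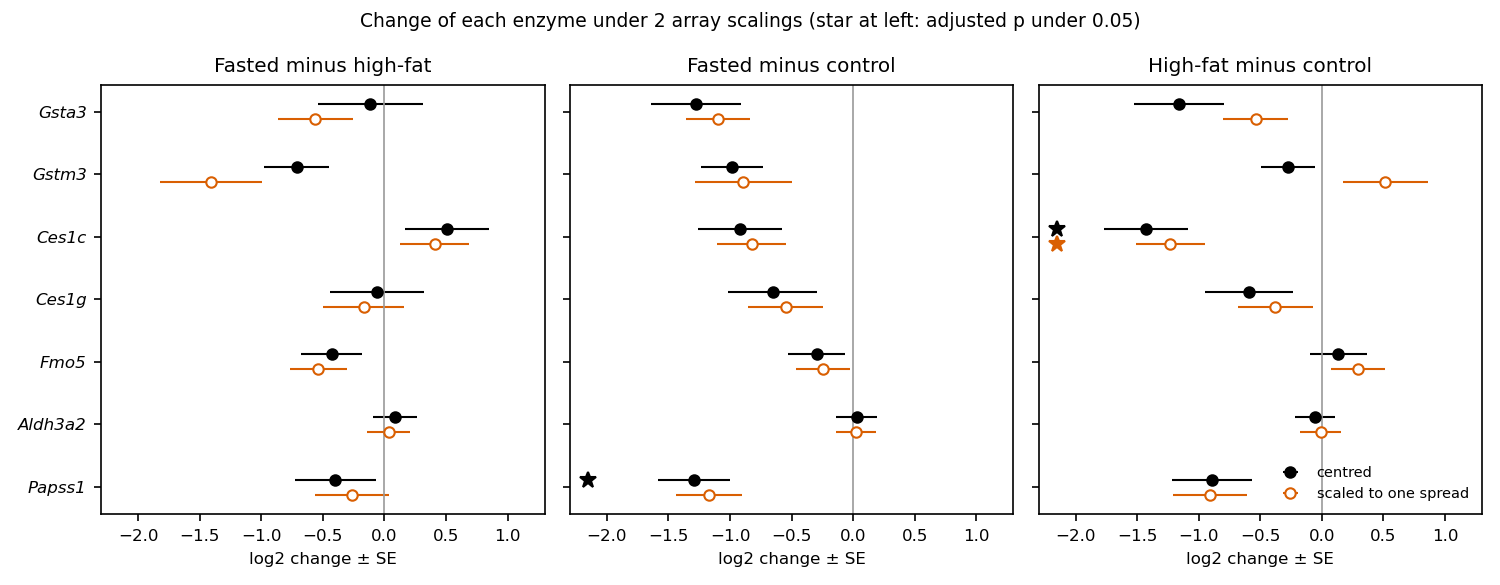
Log2 change of each enzyme in the 3 comparisons, with arrays centred (filled) and scaled to one spread (open). Lines are ± SE and a star marks an adjusted p under 0.05; Ces1c passes in both settings between high-fat and control, Papss1 passes in the centred setting between fasted and control, and Gstm3 changes sign between high-fat and control.

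Fmo5 belongs to the flavin-containing monooxygenases and oxidises ketones to esters. Its values were 0.33, 0.01 and -0.24 in fasted, 0.36, 0.17 and 0.86 in high-fat and -0.14, 0.83, 0.35 and 0.28 in control livers. All 3 groups overlapped, and high-fat array 4 had 0.48. The change was 0.13 ± 0.23 (SE, adjusted p = 0.760 by limma) between high-fat and control. It was -0.43 ± 0.25 (SE, adjusted p = 0.421 by limma) between fasted and high-fat. Fmo2, the other tested member of the family, had -0.51 ± 0.33 (SE, adjusted p = 0.353) between high-fat and control.

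Aldh3a2 oxidises long-chain fatty aldehydes and is an enzyme of the endoplasmic reticulum. Its values were 0.44, 0.43 and 0.00 on fasted, 0.02, 0.41 and 0.19 on high-fat and 0.29, 0.31, -0.04 and 0.49 on control arrays. All 3 groups overlapped, with means of 0.29 ± 0.25 (SD, n = 3) in fasted, 0.21 ± 0.20 (SD, n = 3) in high-fat and 0.26 ± 0.22 (SD, n = 4) in control livers. Its changes lay between -0.06 and 0.08, and the 95% interval between high-fat and control was -0.42 to 0.30. Within the aldehyde dehydrogenases, 5 of 21 listed genes were tested, and 1 fell between high-fat and control. That gene was Aldh1a1, the cytosolic enzyme that makes retinoic acid, at -1.54 ± 0.32 (SE, adjusted p = 0.0253 by limma), and scaled it also passed at -1.11 (adjusted p = 0.0385). Aldh9a1, which acts on amino aldehydes, had 0.43 centred and -0.09 scaled (adjusted p of 0.162 and 0.908), so its direction followed the scaling. The mitochondrial Aldh2 had -0.14 between high-fat and control and -0.21 between fasted and control (adjusted p of 0.514 and 0.382).

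Papss1 makes PAPS, the sulfate donor of every sulfotransferase. Fasted arrays had -1.47, -0.40 and -0.30, the 2 filled high-fat arrays had -0.15 and -0.50, and the 3 filled control arrays had 0.70, 0.76 and 0.24. It was below the array median in both high-fat-fed groups and above it in control livers, with no overlap with control for either. The fall between fasted and control was -1.29 ± 0.29 (SE, adjusted p = 0.0452 by limma). Scaled it was -1.17 (adjusted p = 0.0812), and it passed in 8 of 21 alternatives, with adjusted p from 0.0351 to 0.162. Without fasted array 1, which held the lowest value, the change was -0.92 (adjusted p = 0.0982). The call also ended without control array 1, 2 or 3, fasted array 2, or high-fat array 1 or 3, with adjusted p of 0.0554 to 0.104. Papss1 had no value on control array 3, so the loss without it came from the spread and adjustment shared with other genes. Between high-fat and control the change was -0.89 ± 0.33 (SE, adjusted p = 0.129) and -0.91 scaled. Between fasted and high-fat it was -0.40 ± 0.33 (SE, adjusted p = 0.587), and -0.025 without fasted array 1 (adjusted p = 0.980).

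Of the other 4 tested genes of sulfation 0 passed in any comparison by limma, and 1, Sult5a1, had an unadjusted p under 0.05. Sult5a1, a sulfotransferase, had 0.49 ± 0.19 (SE, adjusted p = 0.136) between high-fat and control, and Tpst1, which sulfates tyrosines of secreted proteins, had -0.37 ± 0.20 (SE, adjusted p = 0.307) between fasted and control. Their medians without Papss1 were -0.21 between high-fat and control and -0.13 between fasted and control.

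Groups that did not overlap were counted over the members against all genes. Gsta3, Ces1c and Papss1 lay below control on every filled high-fat array, and 8.74% of all genes did so. Gsta3, Gstm3 and Papss1 lay below control on every filled fasted array, as 9.56% of all genes did. Gstm3 lay below high-fat on every filled fasted array, as 17.5% of all genes did. Scaled, the members were Ces1c and Papss1 (5.2% of genes), then Gsta3, Gstm3 and Papss1 (9.87%), then Gsta3 and Gstm3 (13.7%). These shares are over 3558 genes, of which 2262 were filled on all 10 arrays. Gsta3 and Papss1 had 2 filled high-fat arrays, Gsta3 and Gstm3 2 filled fasted arrays, and Ces1c and Papss1 3 filled control arrays. Groups with fewer values separate more easily by chance, so the shares are not matched to these members.

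Hepatocyte markers had lower centred ratios in the same comparisons. All 9 tested markers of 14 listed had negative changes between high-fat and control, beside 39.6% of all genes, with a median of -0.60. All 9 were also negative between fasted and control, beside 47.9% of all genes, with a median of -0.50. Scaled, 3 of 9 were negative between high-fat and control with a median of 0.13, and 9 of 9 between fasted and control with a median of -0.43. The markers called were Apoa1 between high-fat and control, at -1.01 (adjusted p = 0.0480 by limma), and Ttr, the thyroid hormone carrier, between fasted and control, at -1.38 (adjusted p = 0.0216). Scaled, 0 hepatocyte markers were called by limma, with -0.43 for Apoa1 (adjusted p = 0.246) and -1.24 for Ttr (adjusted p = 0.239). The array means of these 9 markers were 1.26 to 1.51 in fasted, 1.26 to 1.55 in high-fat and 1.73 to 2.67 in control livers. Each mean was over the markers with a value, and Cyp2e1 had values on 9 of the 10 arrays used. On control array 2 the 7 enzymes lay 1.01 above their means on average and the hepatocyte markers 1.03. On the other control arrays the enzymes were 0.0086 to 0.25 above and the markers 0.10 to 0.15 above. The 0.0086 was on control array 3, where 5 of the 7 enzymes had a value and Ces1c and Papss1 had none. Markers of other cells could barely be tested: 3 lymphocyte, 3 stellate, 1 macrophage, 1 endothelial and 1 bile duct gene had enough values, and 0 red cell and 0 adipose genes. The summed level of the stellate genes, as the mean per array, was -0.30 to -0.17 in fasted, -0.20 to 0.04 in high-fat and -0.58 to -0.42 in control livers. Kdr, the endothelial marker, rose between fasted and control by 0.90 (adjusted p = 0.0181 by limma), and scaled the change was 0.82 (adjusted p = 0.0507). The 1 macrophage gene had -0.75 to -0.60 in fasted, -0.65 to -0.17 in high-fat and -1.16 to -0.56 in control livers. Kdr had 0.97 to 1.22 in fasted, 0.48 to 0.75 in high-fat and -0.08 to 0.42 in control livers. The lymphocyte genes averaged -0.61 to -0.34 in fasted, -0.64 to -0.20 in high-fat and -0.56 to 0.49 in control livers. The 1 bile duct gene had -0.88 to -0.59 in fasted, -0.56 to -0.01 in high-fat and -1.05 to -0.30 in control livers. The part of these markers in the enzymes' values was not tested, and fewer hepatocytes cannot be told apart from less RNA per hepatocyte in whole liver.

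**Figure D3:**
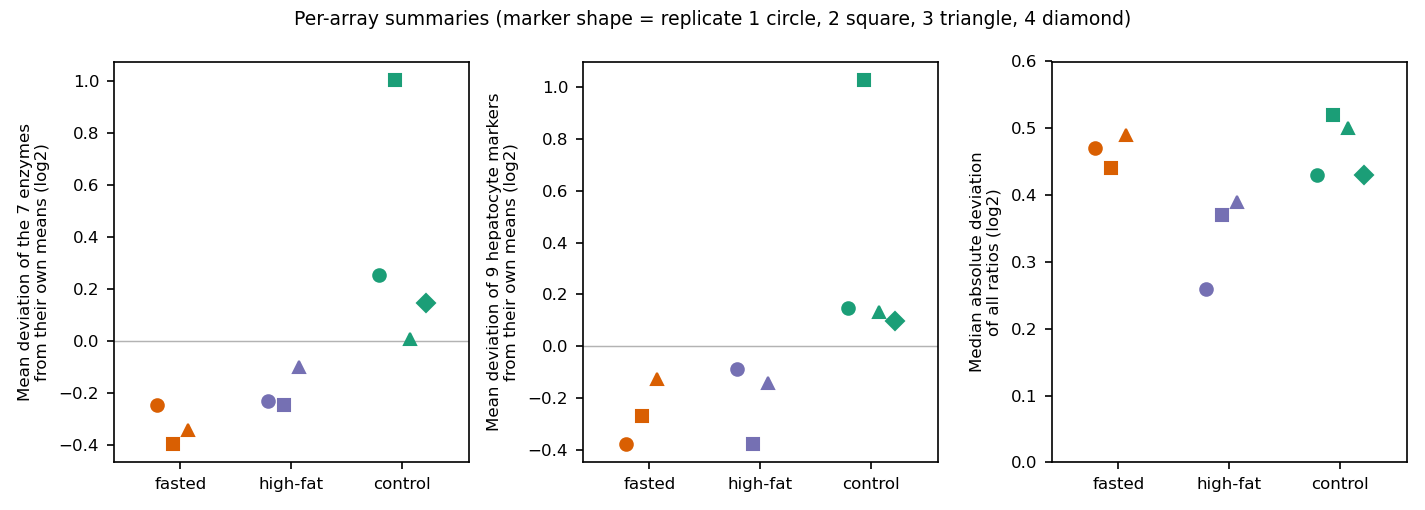
Per array, the mean deviation of the 7 enzymes from their own means (left), the same for 9 hepatocyte markers (middle) and the median absolute deviation of all ratios (right), in log2 units. Each mean is over the genes with a value on that array. Points are arrays; control array 2 stands highest in the left and middle panels at 1.01 and 1.03, and the high-fat arrays have the smallest spread at 0.26 to 0.39.

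The wider pathway was read from 11 lists, which hold 245 genes besides the 7 members. Of these 175 had a spot and 45 were tested. Between high-fat and control 3 fell (6.67%, beside 1.97% of all genes that fell and 4.92% called in either direction), 0 rose, and the median was -0.13, or -0.02 scaled. At an unadjusted p under 0.05, 10 of the 45 were lower and 7 higher, where 8.63% of all genes were lower. The share of all genes higher at this threshold is not given for any comparison, so only the lower counts have a share beside them. Scaled, 1 of the 3 calls held. Between fasted and control 1 fell (2.22%, beside 1.04% of all genes that fell and 3.2% called in either direction) and 0 rose, and scaled 0 passed. Of the 45, 36 were below 0, where 47.9% of all genes were, and the median was -0.17, or -0.14 scaled. At an unadjusted p under 0.05, 8 were lower and 1 higher, where 9.16% of all genes were lower. Between fasted and high-fat 0 passed (beside 0.365% of all genes), with a median of -0.08. There 5 had an unadjusted p under 0.05, 3 of them lower, where 9.81% of all genes were lower. The lists were chosen with earlier results known, so these counts describe them only.

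The other genes that fell after the diet, besides Aldh1a1, were Nnmt, the nicotinamide methyltransferase, and Akr1c6, a hydroxysteroid dehydrogenase of liver. Nnmt averaged 0.35 ± 0.11 in high-fat livers (SD, n = 3) and 0.98 ± 0.24 in control livers (SD, n = 4), a change of -0.63 ± 0.15 (SE, adjusted p = 0.0445 by limma). It was also the 1 gene of these lists that fell between fasted and control, at -0.81 ± 0.17 (SE, adjusted p = 0.0338 by limma) with 2 filled fasted arrays. Scaled, it passed in neither (adjusted p of 0.187 and 0.0888). Akr1c6 had -1.05 ± 0.24 (SE, adjusted p = 0.0311 by limma) between high-fat and control and -0.69 scaled (adjusted p = 0.132). It had -0.92 (adjusted p = 0.0547) between fasted and control. Akr1c14, its relative in steroid reduction, had -0.92 and -0.99 in these comparisons (adjusted p of 0.0709 and 0.0723).

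Other genes had positive changes with the diet, none of them called. Adh5, the formaldehyde-clearing alcohol dehydrogenase, had 0.51 ± 0.15 (SE, adjusted p = 0.0659) between high-fat and control and -0.69 ± 0.16 (SE, adjusted p = 0.0910) between fasted and high-fat. Ugt1a9, a glucuronosyltransferase, had 0.47 ± 0.14 (SE, adjusted p = 0.0737) between high-fat and control, and -0.17 between fasted and high-fat (adjusted p = 0.621). Nr1i2, which encodes PXR, had 0.43 and -0.38 in the same comparisons (adjusted p of 0.194 and 0.373), and scaled 0.23 and -0.23. Nfe2l2, which encodes NRF2, had -0.13 and -0.11 (adjusted p of 0.603 and 0.754). Cebpb, which encodes a C/EBP factor, had 0.61 between fasted and control (adjusted p = 0.184). Among transporters Abcb4, the phospholipid exporter of bile, had -0.74 between high-fat and control on 2 arrays per group (adjusted p = 0.299), and Abcc2, the exporter of conjugates, had 0.26 (adjusted p = 0.536).

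**Figure D4:**
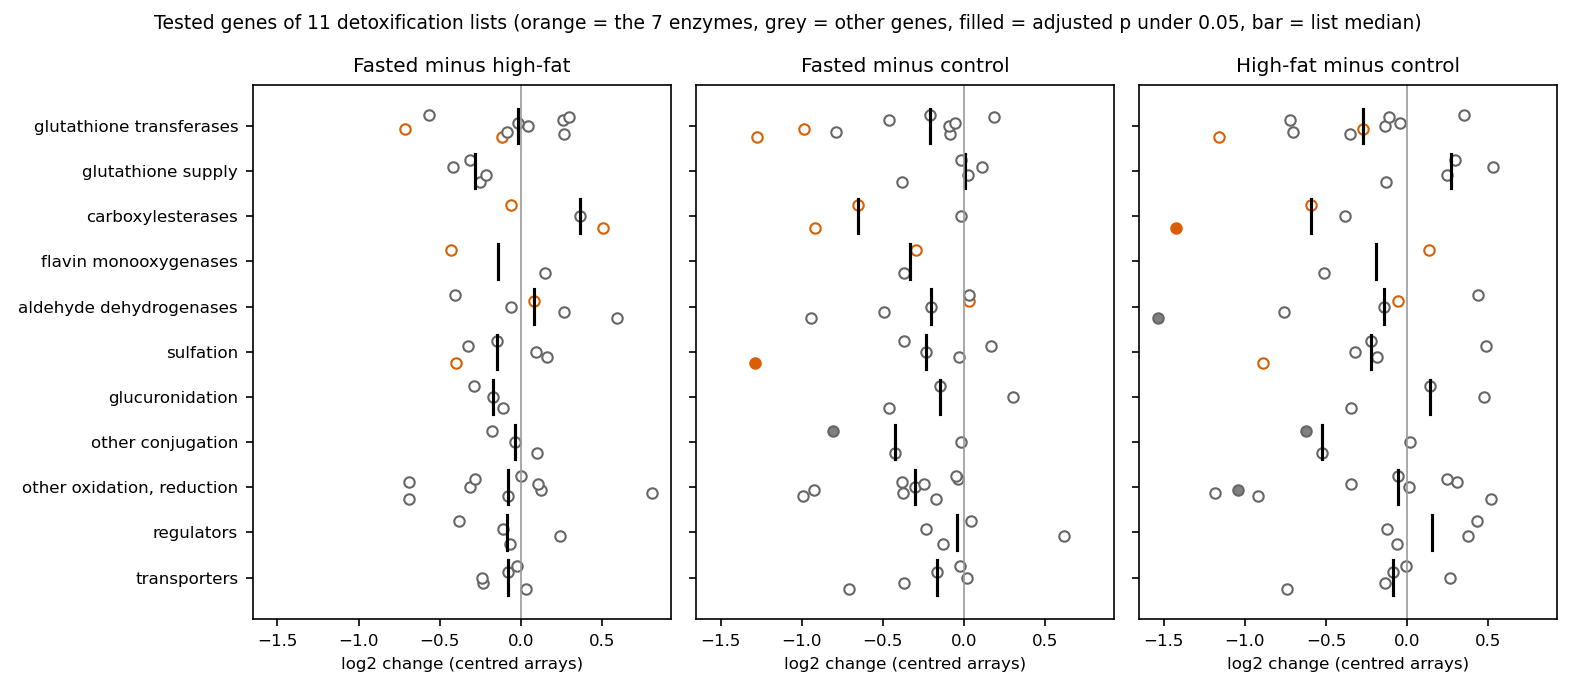
Log2 change of every tested gene of the 11 lists in the 3 comparisons, with centred arrays. Each point is a gene, orange for the 7 enzymes and grey for others, filled where the adjusted p was under 0.05, and the bar is the list's median; filled points lie below 0 in both comparisons with control, and there are 0 filled points between fasted and high-fat.

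The genes most like a member over the 10 arrays could be named for the 3 members filled on all of them, among 2016 other genes with a symbol. Fmo5 was most like Dyrk2, Hs1bp3 and Stk31, with Pearson r of 0.867, 0.865 and 0.860. Scaled, Stk31 and Hs1bp3 were at 0.919 and 0.872 and Dyrk2 at 0.459. Aldh3a2 was most like Ern2, Ptprk and Chst1, with r of 0.884, 0.816 and 0.808. Ces1g was most like Derl3, Tectb and Cyp2d26, with r of 0.956, 0.952 and 0.944. Without control array 2 and fasted array 3, the arrays farthest from the median of Ces1g, these were 0.642, 0.316 and 0.505, so the likeness rested on those arrays. Among the 3 members, Ces1g and Fmo5 had r of 0.587, Ces1g and Aldh3a2 0.130, and Fmo5 and Aldh3a2 0.024. All these points share their arrays and the arrays' scaling, and they describe 10 arrays only.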

How the data were processed

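The authors deposited log ratios, taken here as log2, of liver (Cy5) over reference (Cy3), per the labels. The log base, scanner, background correction, normalisation and the rule for empty cells are not given in these sources; another base would multiply every change by 1 constant. The platform annotation gave the symbols (14718 of 17280 spots with 1 symbol, 1 with several, 2561 with none; 0 updated through RefSeq). Each array was centred on its median, and spots of 1 symbol were averaged. A gene entered the tests if each group had 2 or more filled arrays (3558 did, of which 2262 were filled on all 10 arrays). One limma 3.58.1 fit (R 4.3.3) held 10 arrays and 3 group means, with two-sided moderated tests and Benjamini-Hochberg adjustment per comparison, with 0.05 as the threshold on the adjusted p. High-fat array 4 was left out. Missing values were not imputed. The pipeline was tested on simulated data. Arrays are single mice. Each p-value sets a change against the spread between mice within groups, estimated over the 3 groups and moderated across genes.

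Genes eligible for naming were the 7 members, every called gene of the 11 detoxification lists, the 2 genes with the smallest p per list and comparison, and the 3 genes most like each fully filled member. Members, lists and motifs were chosen with earlier results of these data known. Alternatives changed the scaling, centring, filters, arrays, spots, weights and groups in the fit. Labels number the replicates in each group, but the numbers share no stated animal or batch.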

Additional observations from a re-analysis of the deposited data

Results flagged for a closer look

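On control array 2 the hepatocyte markers with a value, of 9 tested, lay 1.029 above their own means on average. This was far from the next highest control array at 0.145. That gap took up 0.948 of the range of the 4 control arrays. It was the 1 such value among 29 checked over the named genes and array summaries, and chance alone flags about 1 in 20 such groups. The same array carried the highest centred control values of Gsta3, Gstm3, Ces1c, Ces1g, Fmo5 and Papss1, and values without it stand beside Gsta3, Ces1c and Ces1g. The part of this array's markers in the enzymes' values was not tested.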

How the results depend on the processing

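Few arrays, empty spots, an unstated normalisation and unequal spread limit these results, and signal over background is unknown. Outside the results named here and in the report, the members' directions and calls held under the alternatives run. In each setting the values run fasted against high-fat, fasted against control, then high-fat against control, where they moved. Genes called numbered 13, 114 and 175 in the 3 comparisons as reported. They numbered 10 between fasted and control with scaled arrays, and 3 and 77 in both comparisons with control with scaled arrays without control array 2, which was added after seeing the data. With values as deposited they were 198 and 86 in both comparisons with control, and with all 11 arrays 3 and 25 in the comparisons with fasted livers. With only the 2 compared groups in the fit they were 53, 57 and 23, and with array quality weights 118 and 232 in the comparisons with fasted livers. Quantile normalisation gave 24 and genes filled on all 10 arrays gave 7 between fasted and high-fat, and leaving out the genes with the lowest mean ratios gave 115 between high-fat and control. Leaving out 1 array gave 2 to 35, 2 to 159 and 18 to 193.

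Members called (0, 1 and 1) were 0 in both comparisons with control when arrays were centred on spots filled on all 10 arrays. They were also 0 there with 2 groups in the fit, and with scaled arrays without control array 2. With genes filled on all 10 arrays only 3 members were tested, without Ces1c and Papss1, so neither of their calls could be made. Members called were 0 between fasted and control with scaled arrays or all 11 arrays, 3 there with quality weights, and 0 between high-fat and control with weights. Leaving out 1 array gave 0 to 2 between fasted and control and 0 to 1 between high-fat and control. Other list genes called (0, 1 and 3) were 0 between fasted and control with scaled arrays, quantile normalisation, all 11 arrays, 2 groups or scaled arrays without control array 2, and 4 with weights. Between high-fat and control they were 1 with scaled arrays or quantile normalisation, and 0 with 2 groups or scaled arrays without control array 2. Between fasted and high-fat they were 1 with 2 groups and 2 with weights. Leaving out 1 array gave 0 to 1, 0 to 2 and 0 to 5.

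The members' median between high-fat and control was -0.27 with quantile normalisation, -0.056 with the 3 members filled on all arrays, and -0.056 with scaled arrays without control array 2, and -0.80 to -0.18 leaving out 1 array. Between fasted and control it was -0.30 with the filled members, -0.52 with scaled arrays without control array 2, and -0.98 to -0.48 leaving out 1 array. Between fasted and high-fat it ran from -0.32 to 0.12 over all alternatives.

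Signs turned for 5 members, none of them called there. Between high-fat and control Gstm3 had 0.52 scaled, 0.40 with quantile normalisation and 0.58 scaled without control array 2. Aldh3a2 had 0.0014 with quantile normalisation and -0.16 to 0.038 leaving out 1 array, and Fmo5 -0.065 to 0.30 leaving out 1 array. Between fasted and high-fat Gsta3 had 0.12 as deposited, 0.47 with all 11 arrays and -0.57 to 0.34 leaving out 1 array. Ces1g had 0.14 as deposited, 0.018 with weights and -0.18 to 0.093 leaving out 1 array, and Aldh3a2 -0.01 to 0.23. Between fasted and control Aldh3a2 had -0.062 centred on spots filled on all arrays and -0.073 to 0.17 leaving out 1 array. With 1 value left in a group, that array is assumed to vary like the others. The cause of these shifts was not tested.

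Deviations of arrays with the same replicate number correlated with r from -0.18 to 0.18 over 9 pairs. The 3 pairs over 0.1 were the pairs of arrays numbered 1 (0.12 to 0.18), and 3 arrays correlated best with their own number. As not every pair was over 0.1 and the labels give no shared animal or batch, the numbers were not taken as pairs. With the replicate block, 4 genes were called between fasted and high-fat, 0 members passed in both comparisons with control, 1 other list gene passed between high-fat and control, and Aldh3a2 had 0.02 there. Ces1c then had -1.48 (adjusted p = 0.0908) between high-fat and control, and Papss1 -1.50 (adjusted p = 0.0612) between fasted and control, by limma.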
